A study of Mus musculus with 12 samples.

Results

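Expression of 10 noncollagen matrix genes of mesenchyme was examined in mouse embryoids and their controls: Postn, Lum, Dcn, Bgn, Vcan, Fbn1, Fbn2, Eln, Fn1 and Tnc. They were taken by name from a table of 24946 genes, as periostin, the small proteoglycans, the elastic fibre genes and the matrix glycoproteins around them. All 10 were in the table, and all 10 passed the filter on low values that left 13751 genes for testing. The 10 genes were chosen by name with earlier results of these data known, that is, selected on their levels in the same 12 libraries and the differences between embryoids and controls. Their own differences between groups are therefore given as a description, with no p-value.

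RNA was sequenced from 12 libraries, 3 in each of 4 groups: Control D7, Control D8, Embryoid D7 and Embryoid D8, where D7 and D8 are days after the aggregates were formed. By the labels all cells were E14TG2a, a mouse embryonic stem cell (ESC) line of strain 129/ola. An embryoid was made by joining, on day 3, an untreated aggregate of 100 ESC to an aggregate of 50 ESC that had been incubated with BMP4 for 8 hours, at 10 ng/ml by the labels. The study's methods give a higher concentration and a slightly smaller pool than the labels, and the difference was not resolved. A control was made by joining aggregates of 50 and 100 ESC of which neither had seen BMP4. Each library came from a pool of 12 embryoids by the labels, so variation between single embryoids is not seen. The comparison of embryoids with controls asks what the BMP4-treated aggregate brought to the merged structure by D7 and D8.

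The table does not name its unit. From its sums the values were read as TPM, transcript levels scaled for gene length and library size, rounded to whole numbers. TPM is scaled per length, so levels of different genes can be compared within a library. Rounding can shift each value by up to 0.5, which matters for genes at 1 or 2 TPM, and a value of 0 means only that the gene is listed at 0. The libraries summed to 997897 to 998433 TPM and held 13302 to 14354 genes above 0. The read depth is unknown, and the number of libraries limits the precision. The library names begin with WT for the controls and with E14 for the embryoids, and Hprt, the purine salvage enzyme, was at 32 to 36 TPM in controls and at 0 or 1 in embryoids. E14TG2a is known as an Hprt-deficient line, so the libraries labelled control go against the shared line label at this gene. A difference in starting cells and the BMP4 treatment cannot be told apart for any embryoid against control value below. In bulk samples, fewer cells of a type and less RNA per cell also cannot be told apart.

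The extracellular matrix of loose connective tissue is a scaffold of collagen fibrils, elastic fibres and hydrated proteoglycans laid down by mesenchymal cells. Fibronectin is assembled early on cell surfaces and guides the deposition of other components. Fibrillins form microfibrils, on which tropoelastin is deposited and which hold latent TGF-β. Lumican, decorin and biglycan are small leucine-rich proteoglycans that bind collagen fibrils or growth factors. Versican is a large proteoglycan that binds hyaluronan. Periostin and tenascin C are matricellular proteins, which act on cells and on matrix assembly. In the mouse embryo periostin is a well known product of the mesenchyme of the heart cushions and valves and of the periosteum.

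The cell type lists used here were chosen with earlier results of these data known, so their levels are a description. Mesenchyme was followed through a list of 10 transcription factors of mesenchyme. Their summed level was 36 to 40 TPM in controls, 91 to 107 TPM in D7 embryoids and 113 to 116 TPM in D8 embryoids. All 10 were above 0 in every embryoid library, whereas Twist1, Twist2 and Foxc2, transcription factors of mesenchyme, were listed at 0 in every control. Not every gene of the list was higher in embryoids. Zeb1, which made up about as much of the control sum as all the others, was at 19 to 20 TPM in D7 controls and 11 to 17 TPM in D7 embryoids, and at 21 to 22 and 21 to 24 TPM at D8. Zeb2 was at 3 TPM in every D8 library. Prrx1, a transcription factor of limb and facial mesenchyme, was at 8 to 13 TPM in controls and 12 to 19 TPM in embryoids. Embryoids also held other cell types. The summed level of 11 cardiac muscle genes was 1 to 5 TPM in controls, 560 to 1397 TPM at D7 and 1232 to 3347 TPM at D8 in embryoids. That of 8 endothelial genes was 15 to 20 TPM in controls and 191 to 282 TPM in embryoids, while that of 6 neural progenitor genes was lower in embryoids, at 167 to 497 TPM against 973 to 1461 TPM in controls. Several of these cell types can make the matrix genes below, and their part in the results was not tested.

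Promoter windows of 300 bases, from 250 before a start site to 50 after it, were matched by gene symbol in the RefSeq annotation of GRCm38.p6 for Postn, Tnc, Vcan, Fbn1 and Bgn, in 7 windows. The 80 bases before the start are printed for the gene with the largest change, Postn, and for 2 genes that moved less or stayed low, Vcan and Bgn, 5′ to 3′ on the strand of the gene, with the letters TATAA in capitals where they begin 20 to 40 bases before the start. The Postn stretch lies at chr3:54361027-54361106 on the plus strand, that of Vcan at chr13:89742513-89742592 on the minus strand and that of Bgn at chrX:73483521-73483600 on the plus strand.
Postn: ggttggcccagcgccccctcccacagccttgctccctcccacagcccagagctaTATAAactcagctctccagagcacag
Vcan: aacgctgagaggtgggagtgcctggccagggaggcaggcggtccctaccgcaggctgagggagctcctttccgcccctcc
Bgn: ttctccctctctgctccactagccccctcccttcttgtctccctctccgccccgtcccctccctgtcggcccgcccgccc
In Postn the letters TATAA began 26 bases before the start site that lies 2 bases from the annotated gene start, and not in the window of a second start 1842 bases from it. In Tnc they began 27 bases before 1 of its 2 start sites. The windows of Vcan, Fbn1 and Bgn had no TATAA at this place, that of Fbn1 being for a start 1555 bases from the annotated gene start. Of all 32851 windows, 1155 (3.52%) had it there on the strand of the gene, and 24.9% had it anywhere on either strand. A match of letters is a description and was not tested as a site.

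Periostin showed the widest range of the 10 genes. Postn (chromosome 3) was listed at 0 in all 6 controls, at 25, 30 and 11 TPM in the D7 embryoids and at 129, 250 and 329 TPM in the D8 embryoids. The 3 groups of values (controls, D7 embryoids and D8 embryoids) did not overlap, and the lowest D8 embryoid library was 4.3 times the highest D7 one. The mean went from 22.0 ± 9.85 TPM to 236 ± 101 TPM (SD, n = 3 each) within embryoids, a ratio of 10.7. On the log2(TPM + 1) scale, which understates the change of low genes, the embryoid minus control difference was 4.41 ± 0.36 at D7 and 7.79 ± 0.36 at D8 (± standard error here and below). Where controls are listed at 0 this difference depends on the pseudocount of 1 and gives no fold. The change between days in embryoids was 3.37 ± 0.36. Each standard error pools the spread of a gene over all 12 libraries. Where all controls are listed at 0, as for Postn, it understates the spread among embryoid libraries. Of the 12914 genes with a mean above 1 TPM in D8 embryoids, Postn ranked 686th, whereas it ranked 5642nd of 12402 at D7.

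**Figure D1:**
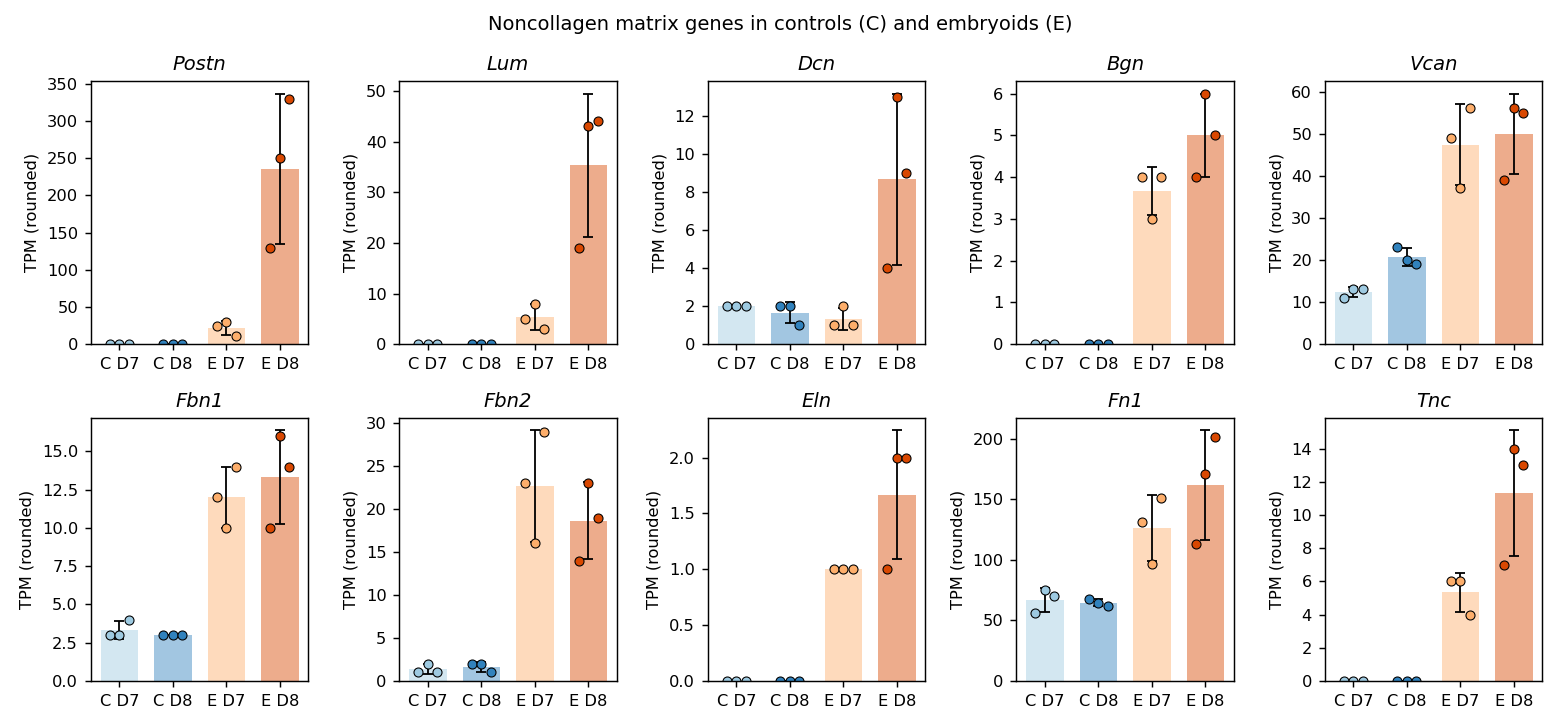
Levels of the 10 matrix genes in rounded TPM (vertical axes, each starting at 0 with its own range) in controls (C) and embryoids (E) at D7 and D8. Points are the 3 libraries of a group, ordered by replicate number, bars are means and error bars are SD. Postn, Lum, Bgn, Eln and Tnc are listed at 0 in all 6 controls, and the D8 embryoid replicate 1 is the lowest of its group in every panel.

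The small leucine-rich proteoglycans of the collagen fibril followed, at lower levels. Lum, lumican, which regulates collagen fibril spacing, was listed at 0 in all 6 controls, at 5, 8 and 3 TPM in the D7 embryoids and at 19, 43 and 44 TPM in the D8 embryoids. All D8 embryoids lay above all D7 embryoids, with means of 5.33 ± 2.52 and 35.3 ± 14.2 TPM (SD, n = 3 each), a ratio of 6.63. Its log2 difference from controls was 2.58 ± 0.32 at D7 and 5.09 ± 0.32 at D8.

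Dcn, decorin, which binds collagen and TGF-β, had a different course. It was at 2, 2 and 2 TPM in the D7 controls, 2, 2 and 1 TPM in the D8 controls and 1, 2 and 1 TPM in the D7 embryoids, so that these 3 groups overlapped within the rounding of the table. In the D8 embryoids it was at 4, 13 and 9 TPM, above every other library. On the log2 scale Dcn differed from its controls by -0.39 ± 0.32 at D7 and by 1.76 ± 0.32 at D8. The mean within embryoids was 6.5 times higher at D8.

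Bgn, biglycan, the closest relative of decorin, did not share this step. It was listed at 0 in all 6 controls, at 4, 3 and 4 TPM in the D7 embryoids and at 4, 6 and 5 TPM in the D8 embryoids. The embryoids of the 2 days overlapped, with a change of 0.36 ± 0.15 on the log2 scale, and the difference from controls was 2.21 ± 0.15 at D7 and 2.57 ± 0.15 at D8.

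Lum and Dcn are neighbours on chromosome 10 (GRCm38), with Dcn at 97479609 to 97518143 and Lum at 97565128 to 97572703, both on the plus strand, 47.0 kb apart and with no protein-coding gene between them. The cluster goes on with Kera, keratocan, and Epyc, epiphycan, at gaps of 34.2 and 30.4 kb. Both were listed at 0 in all 12 libraries, so 2 of the 4 genes of the cluster were above 0. Within embryoids Lum was 3 to 5 times Dcn at D7 and 3.31 to 4.89 times at D8, the D7 ratios resting on 1 or 2 TPM of Dcn, whereas in controls Dcn was at 1 or 2 TPM beside a Lum of 0. Bgn lies elsewhere, on chromosome X.

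Transcripts of fibronectin and versican were also present in controls. Fn1 was at 56, 75 and 70 TPM in controls of D7 and at 68, 64 and 62 TPM in those of D8, the highest of the 10 genes in every control library. In embryoids it was at 131, 97 and 151 TPM at D7 and at 113, 171 and 202 TPM at D8, above every control of the same day. Embryoid means were 1.89 times those of controls on D7 and 2.51 times on D8, with log2 differences of 0.89 ± 0.21 and 1.27 ± 0.21. D7 and D8 embryoids overlapped. Apol7d, annotated on the opposite strand across Fn1, was at 0 or 1 TPM, and the sources used here do not say whether reads were counted by strand.

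Vcan was at 11, 13 and 13 TPM in the D7 controls and at 23, 20 and 19 TPM in the D8 controls. It was the only one of the 10 genes whose control libraries of the 2 days did not overlap, with a change of 0.70 ± 0.16 on the log2 scale that stayed under the minimum size of 1 used for a call. In embryoids it was at 49, 37 and 56 TPM at D7 and at 39, 56 and 55 TPM at D8. Its mean ratio to controls was therefore 3.84 at D7 and 2.42 at D8, and the log2 difference went from 1.84 ± 0.16 to 1.22 ± 0.16, a change of -0.62 ± 0.23.

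The 2 fibrillins stood in opposite order in the 2 conditions. Fbn1 was at 3, 3 and 4 TPM in the D7 controls, 3, 3 and 3 TPM in the D8 controls, 12, 10 and 14 TPM in the D7 embryoids and 10, 16 and 14 TPM in the D8 embryoids. Fbn2, the fibrillin that is prominent in embryonic microfibrils, was at 1, 2 and 1 TPM in the D7 controls, 2, 2 and 1 TPM in the D8 controls, 23, 16 and 29 TPM in the D7 embryoids and 14, 23 and 19 TPM in the D8 embryoids. Fbn2 was below Fbn1 in all 6 controls, at a ratio of 0.25 to 0.667 that rests on values of 1 to 4 TPM, and above it in all 6 embryoid libraries, at 1.6 to 2.07 at D7 and 1.36 to 1.44 at D8. The log2 difference from controls was 1.58 ± 0.16 and 1.82 ± 0.16 for Fbn1 and 3.33 ± 0.26 and 2.88 ± 0.26 for Fbn2, at D7 and D8. Neither gene separated D7 from D8 embryoids.

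Eln, which encodes tropoelastin, stayed at the edge of what whole numbers can show. It was listed at 0 in all 6 controls, at 1 TPM in each D7 embryoid library and at 1, 2 and 2 TPM in the D8 embryoids. The fibrillins were thus read at 10 to 29 TPM in embryoids beside an elastin of at most 2 TPM.

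Tnc, tenascin C, a matricellular glycoprotein of condensing mesenchyme and remodelling tissue, was listed at 0 in all 6 controls, at 6, 6 and 4 TPM in the D7 embryoids and at 7, 14 and 13 TPM in the D8 embryoids. The D8 embryoids lay above the D7 ones, with a mean ratio of 2.13, but the lowest D8 library exceeded the highest D7 library by only 1.17 times. The log2 change between days was 0.93 ± 0.22. Without the D8 embryoid replicate 1 it was 1.21, and it was 1.01 without D7 embryoid replicate 1 or 2, so its side of the minimum size of 1 rests on single libraries.

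Counted over the 10 genes, a call needed an adjusted p under 0.05 in limma over all 13751 genes and a log2 difference above 1 in size. At D7, 7 of the 10 met this rule, all higher in embryoids, beside 7.56% of all genes tested called higher. The exceptions were Dcn, Eln, whose difference was exactly 1, and Fn1. At D8 all 10 met it, beside 10.2% of all genes called higher. From D7 to D8 in embryoids 3 met it (Postn, Lum and Dcn), beside 2.53% of all genes called higher. From D7 to D8 in controls none did, beside 2.73% called in either direction and 2.53% called higher, and with no minimum fold 1 did, beside 25.4%. The change of the embryoid minus control difference met it for Postn, Lum and Dcn, beside 1.61% called higher and 2.51% called in either direction. For Postn and Lum, listed at 0 in all controls, it is the same number as their change within embryoids. The embryoid libraries lay above every control of the same day for 9 of the 10 genes at D7 (all but Dcn), beside 19.1% of all genes tested, and for all 10 at D8, beside 25% of all genes. The D8 libraries lay above every D7 library for 4 of the 10 in embryoids (Postn, Lum, Dcn and Tnc), beside 17.7%, and for 1 in controls (Vcan), beside 30.6%. The median log2 difference of the 10 was 2.03 at D7 and 2.19 at D8, while that of all genes tested was -0.19 and -0.18. With the median-of-ratios scaling the median of all genes was 0.02 on both days, and every member with a call on these days stayed called. Since the genes were chosen with these values known, nothing is read from the counts.

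**Figure D2:**
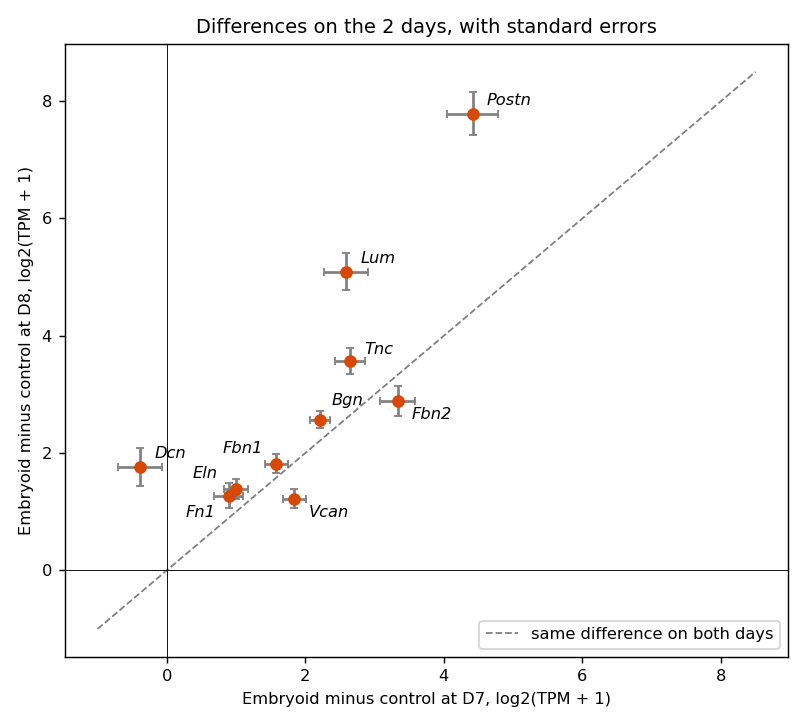
Embryoid minus control difference in log2(TPM + 1) at D7 (horizontal axis) and D8 (vertical axis) for the 10 genes. Points are limma estimates from 3 libraries a group, with standard errors as bars, and the dashed line marks the same difference on both days. Postn (4.41 and 7.79), Lum (2.58 and 5.09) and Dcn (-0.39 and 1.76) lie farthest above the line, while Vcan and Fbn2 lie below it.

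The order of levels within the embryoids changed between the days. In D7 embryoids Fn1 came first at 126 ± 27.3 TPM (SD, n = 3 here and in this paragraph), followed by Vcan at 47.3 ± 9.61 TPM, Fbn2 at 22.7 ± 6.51 TPM and Postn at 22.0 ± 9.85 TPM, and then Fbn1, Lum, Tnc, Bgn, Dcn and Eln. Fbn2 and Postn overlapped, as did Postn and Fbn1. In D8 embryoids Postn came first at 236 ± 101 TPM and Fn1 next at 162 ± 45.2 TPM, with overlapping libraries. Vcan at 50.0 ± 9.54 TPM and Lum at 35.3 ± 14.2 TPM also overlapped, and were followed by Fbn2, Fbn1, Tnc, Dcn, Bgn and Eln. Of the summed level of the 10 genes, Postn made up 4.01% to 14.3% at D7 and 37.9% to 47.5% at D8, and Fn1 46.2% to 55.1% at D7 and 28.8% to 33.2% at D8. Within each library Postn went from below Fn1 at D7 (0.0728 to 0.309 times) to above it at D8 (1.14 to 1.63 times). That sum was 73 to 98 TPM in controls, 210 to 274 TPM in D7 embryoids and 340 to 692 TPM in D8 embryoids.

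The embryoid libraries of 1 day differed from each other along the same lines. In the D8 embryoids replicate 1 was the lowest for all 10 genes, while it was the lowest for 28.5% of all genes tested. It stood at 0.364 to 0.437 of the mean of the other two libraries for Dcn and Lum, 0.446 for Postn, 0.519 for Tnc and 0.606 to 0.727 for Fn1, Fbn1, Fbn2, Vcan and Bgn. The summed level of 5 fibrillar collagens moved with them, at 277 TPM in replicate 1 and 549 and 589 TPM in replicates 2 and 3. Col3a1, the main collagen of loose tissue in this sum, was at 181, 341 and 359 TPM. Other sums were also lowest in replicate 1. Lateral plate mesoderm was at 141, 193 and 199 TPM and visceral endoderm at 38, 52 and 53 TPM, both in the order of Postn. Smooth muscle was at 144, 243 and 180 TPM, endothelium at 236, 282 and 274 TPM and gut endoderm at 89, 137 and 124 TPM. The mesenchyme transcription factors were nearly level, at 113, 115 and 116 TPM. The neural progenitor sum was highest in replicate 1, at 497 TPM against 353 and 360 TPM. The part of these cell types in the spread of the 10 genes was not tested.

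In the D7 embryoids the genes split. Postn, Lum and Tnc were lowest in replicate 3, and Fn1, Vcan, Fbn1 and Fbn2 were highest there. Replicate 2 was highest for Postn, Lum and Dcn and lowest for Fn1, Vcan, Fbn1, Fbn2 and Bgn. Replicate 2 was the lowest library for 50.4% of all genes tested and had the smallest median-of-ratios factor, 0.819 against 0.941 and 0.944, so a low value there is common to many genes. The lateral plate mesoderm sum followed the Postn order, at 107, 149 and 58 TPM in replicates 1, 2 and 3. In it Hand1, a transcription factor of lateral and cardiac mesoderm, was at 78, 105 and 37 TPM. The same order held for gut endoderm (101, 134 and 82 TPM), smooth muscle (79, 139 and 66 TPM) and visceral endoderm (11, 30 and 10 TPM). Endothelium (230, 231 and 191 TPM) and fibrillar collagens (136, 137 and 117 TPM) had it too, with replicates 1 and 2 nearly level. The sums of mesenchyme factors, somite and sclerotome, neural progenitors and neural crest did not follow it. The part of these cell types was not tested. The cardiac muscle sum was 560, 1397 and 610 TPM. At D8 the cardiac sum did not follow Postn, being lowest, at 1232 TPM, in replicate 3, where Postn was highest.

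**Figure D3:**
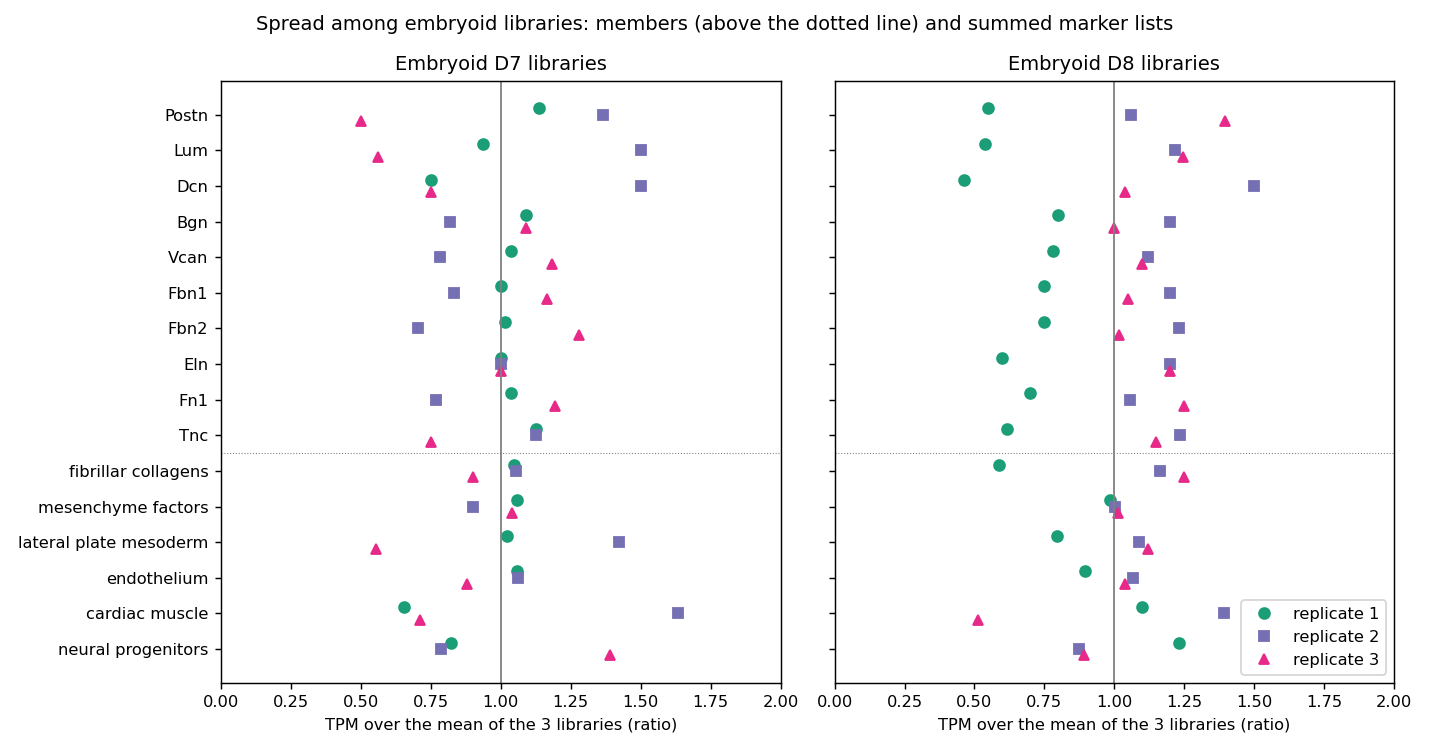
TPM of each embryoid library divided by the mean of its group (horizontal axis, ratio) for the 10 genes and, under the dotted line, for summed marker lists, at D7 and D8. Symbols mark the replicate number. At D8 replicate 1 (circles) lies lowest for all 10 genes and for fibrillar collagens, at 0.587 of the mean, and mesenchyme factors lie together near 1. At D7 replicate 3 (triangles) is low for Postn and Lum and high for the fibrillins, Fn1 and Vcan.

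Genes with a course most like that of Postn were ranked by Pearson's r of log2(TPM + 1) among genes with a group mean above 5 TPM. The points share libraries and 2 conditions, so r is a description. Over all 12 libraries Filip1l came first (r = 0.998), followed by Lum (0.996), S100a6 (0.995), Col6a1, a chain of collagen VI (0.995), and Adgre5 (0.994). Col6a1 was listed at 0 in all controls, at 4, 4 and 3 TPM in D7 embryoids and at 7, 10 and 11 TPM in D8 embryoids. Over the 6 embryoid libraries alone Mab21l2 came first (r = 0.999), at 14, 16 and 9 TPM at D7 and 38, 51 and 64 TPM at D8, although its controls lay at 43 to 86 TPM. Plin2, C430049B03Rik, Col23a1 and Letmd1 followed, each at 0.996 to 0.997. No gene was among the first 5 in both rankings.

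The partners of these genes in the matrix were followed through 7 lists of 86 genes, of which 64 passed the filter and 15 were listed at 0 in all 12 libraries. Between embryoids and controls, 22 of the 64 rose and 4 fell at D7, beside 7.56% and 8.33% of all genes (15.9% in either direction). At D8 35 rose and 3 fell, beside 10.2% and 9.61% (19.8% in either direction). Many of the genes that rose had control means of at most 1 TPM on both days. They passed the filter only through embryoids and could not be called lower there. The filter thus set part of the balance of rises and falls, here and in the lists below. From D7 to D8 in embryoids 3 rose and none fell, beside 2.66%. With no minimum fold 30 of the 64 passed, beside 20.6% of all genes, and at D7 56 passed, beside 65.2%. The median log2 difference of the 64 was 0.63 at D7 and 1.26 at D8. Adjusted p-values below are from limma with Benjamini-Hochberg adjustment over all genes tested, at n = 3 a group. Where control means were at most 1 TPM on both days, the filter set the direction against controls in advance. No p-value of the difference from controls is given for those genes.

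Among 17 genes of elastic fibre assembly 13 were tested, of which 7 rose at D7 and 9 at D8, and none fell. Emilin1, a glycoprotein at the elastin and microfibril interface, was at 1 TPM in every control. It was at 25, 25 and 21 TPM in D7 embryoids and at 24, 35 and 34 TPM in D8 embryoids. Its log2 difference at D8 was 3.98 ± 0.13. Emilin2 was at 1 TPM in each D8 control and at 9, 14 and 9 TPM in D8 embryoids (2.52 ± 0.16, adjusted p = 8.30e-08). Fbln2, fibulin 2, was at 1 or 2 TPM in D8 controls and at 11, 15 and 16 TPM in D8 embryoids (2.50 ± 0.17, adjusted p = 1.97e-07). Mfap2, a microfibril component, was at 85 to 94 TPM in D8 controls and 58 to 78 TPM in D8 embryoids (-0.40 ± 0.09) and was not called, and neither was Ltbp4, which helps elastin assemble (-0.54 ± 0.16). Lox, a cross-linking enzyme of collagen and elastin, was listed at 0 in all 12 libraries, as were Mfap5 and Ltbp2. Its relatives in the list were above 0. Loxl2 was at 17 to 19 TPM in D8 controls and at 63, 72 and 77 TPM in D8 embryoids (1.94 ± 0.16), and was called. Loxl1 was at 5 or 6 TPM in D8 controls and 4 or 5 TPM in D8 embryoids, and was not called.

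The other small leucine-rich proteoglycans were mostly at or near 0. Of 12, 3 were tested, and Omd, Ogn, Aspn, Epyc, Kera and Chad were listed at 0 in all 12 libraries. Fmod, fibromodulin, was the only one that rose at D8, at 1, 1 and 3 TPM in embryoids and 0 in controls (1.33 ± 0.24). Its call was lost with a pseudocount of 5 and with quantile normalization. Fmod passed the filter only through the D8 embryoids, at a mean of 1.67 TPM. The filter thus set its direction in advance, and no p-value is given. Tsku was at 24 to 26 TPM in D8 controls and 21 to 24 TPM in D8 embryoids, and Prelp was at 2 TPM or less in every library.

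Genes of the hyaluronan matrix, the setting of versican, moved in both directions. Of 6 tested, 4 rose and 2 fell at D8. Has2, the main hyaluronan synthase of the mouse embryo, was listed at 0 in each D8 control. In D8 embryoids it was at 4, 5 and 5 TPM (2.50 ± 0.12). Hapln1, which links versican to hyaluronan and lies 43.7 kb from Vcan on chromosome 13, was listed at 0 in all controls. In all embryoids it was at 4 or 5 TPM (2.32 ± 0.12 at D8). Cd44, a hyaluronan receptor, was at 1 or 2 TPM in D8 controls and at 5 TPM in each D8 embryoid library (1.39 ± 0.14, adjusted p = 4.99e-06). Ncan, neurocan, a proteoglycan of neural tissue, was at 20 to 24 TPM in D8 controls and at 3 to 5 TPM in D8 embryoids (-2.22 ± 0.22, adjusted p = 3.30e-06). Has3 was also lower (-1.50 ± 0.13, adjusted p = 1.54e-06). Except for Ncan, these calls were lost with a pseudocount of 5.

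Among the matricellular proteins 3 of 9 rose and 2 fell (Ctgf and Thbs1) at D7, while 6 rose and none fell at D8. The other tenascins of the list, Tnn, Tnr and Tnxb, were listed at 0 in all 12 libraries. Tgfbi, the closest relative of periostin, was listed at 0 in all 6 controls. It was at 68, 55 and 60 TPM in D7 embryoids and at 71, 97 and 91 TPM in D8 embryoids. Its log2 difference from controls at D8 was 6.44 ± 0.11. Its change from D7 to D8 in embryoids was 0.49, beside 3.37 for Postn. Sparcl1 was at 1 TPM in every control and at 71 to 100 TPM in the embryoids (5.40 ± 0.11 at D8). Cyr61 was at 6 or 7 TPM in D8 controls and at 24, 34 and 34 TPM in D8 embryoids (2.03 ± 0.16, adjusted p = 4.49e-07). Sparc, a collagen-binding protein, was at 220 to 246 TPM in D8 controls and at 281, 373 and 393 TPM in D8 embryoids (0.59 ± 0.14) and was not called. Ctgf was lower in embryoids at D7, at 3 TPM in each against 20 to 23 TPM (-2.50, adjusted p = 9.38e-09), and was not called at D8, at 6 to 9 TPM against 9 or 10 TPM. Its rise within embryoids was 1.04 ± 0.12 (adjusted p = 0.000236), a call lost under 4 of 21 alternatives, among them leaving out the D8 embryoid replicate 1.

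Of 13 receptors tested, 5 rose and 1 fell at D8. Itgb3, the β3 integrin, part of a receptor for periostin and fibronectin, was listed at 0 in all controls. It was at 6, 3 and 2 TPM in D7 embryoids and at 8, 10 and 9 TPM in D8 embryoids (3.32 ± 0.24 at D8). It also rose within embryoids (1.19 ± 0.24, adjusted p = 0.00552), a call lost under 3 of 21 alternatives. These were a pseudocount of 5, a fit of only the 6 embryoid libraries, and leaving out the D7 embryoid replicate 3. Itga8 (2.85 ± 0.14) and Itga9 (2.66 ± 0.45, adjusted p = 0.000344), α integrins that bind tenascin C and other ligands, rose at D8. Itga9 was at 20, 23 and 7 TPM in the D8 embryoids, so replicate 3 stood apart from the other two. Itgb8 was lower (-1.04 ± 0.27, adjusted p = 0.00483), a call lost under 4 of 21 alternatives, among them leaving out the D8 embryoid replicate 3. Itgb1, the common β1 integrin, was at 97 to 102 TPM in D8 controls and 175 to 189 TPM in D8 embryoids, a difference of 0.88 ± 0.07 that was under the minimum size, and above it with both other scalings. Dag1, dystroglycan, was not called (-0.54 ± 0.10).

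Of 14 matrix proteases and inhibitors tested, 6 rose at D8 and none fell. Mmp2, a gelatinase of mesenchymal cells, was at 6 to 8 TPM in D8 controls and at 58, 78 and 86 TPM in D8 embryoids (3.28 ± 0.18, adjusted p = 2.80e-08). Timp3 (1.97 ± 0.14, adjusted p = 2.52e-07) and Timp1 (1.60 ± 0.18, adjusted p = 9.22e-06), inhibitors of such enzymes, rose as well, the call of Timp1 being lost with a pseudocount of 5. Bmp1, which cleaves procollagens and the precursors of several small proteoglycans, was not called (-0.76 ± 0.08), at 72 to 75 TPM in D8 controls and 37 to 47 TPM in D8 embryoids. Its relative Tll1 was listed at 0 in every library other than the D8 embryoids, which had 1, 1 and 2 TPM (1.19 ± 0.19 from D7 to D8). Its call was lost with a pseudocount of 5 and with quantile normalization. Tll1 passed the filter only through the D8 embryoids, at a mean of 1.33 TPM. The filter thus set its direction in advance, and no p-value is given. Mmp11 was not called (-0.24 ± 0.07).

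Of the 6 TGF-β genes 3 rose at D7 and 4 at D8. Tgfb2 was at 0 or 1 TPM in controls and at 23, 29 and 31 TPM in D8 embryoids (3.83 ± 0.24). Tgfb1 was listed at 0 in all controls and at 8, 12 and 11 TPM in D8 embryoids (3.49 ± 0.14). Tgfbr2, the type II receptor, was at 1 TPM in every control and at 9, 11 and 11 TPM in D8 embryoids (2.50 ± 0.12). The type I receptor Tgfbr1 (-0.43 ± 0.12) and the third ligand Tgfb3 (0.07 ± 0.11) were not called.

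**Figure D4:**
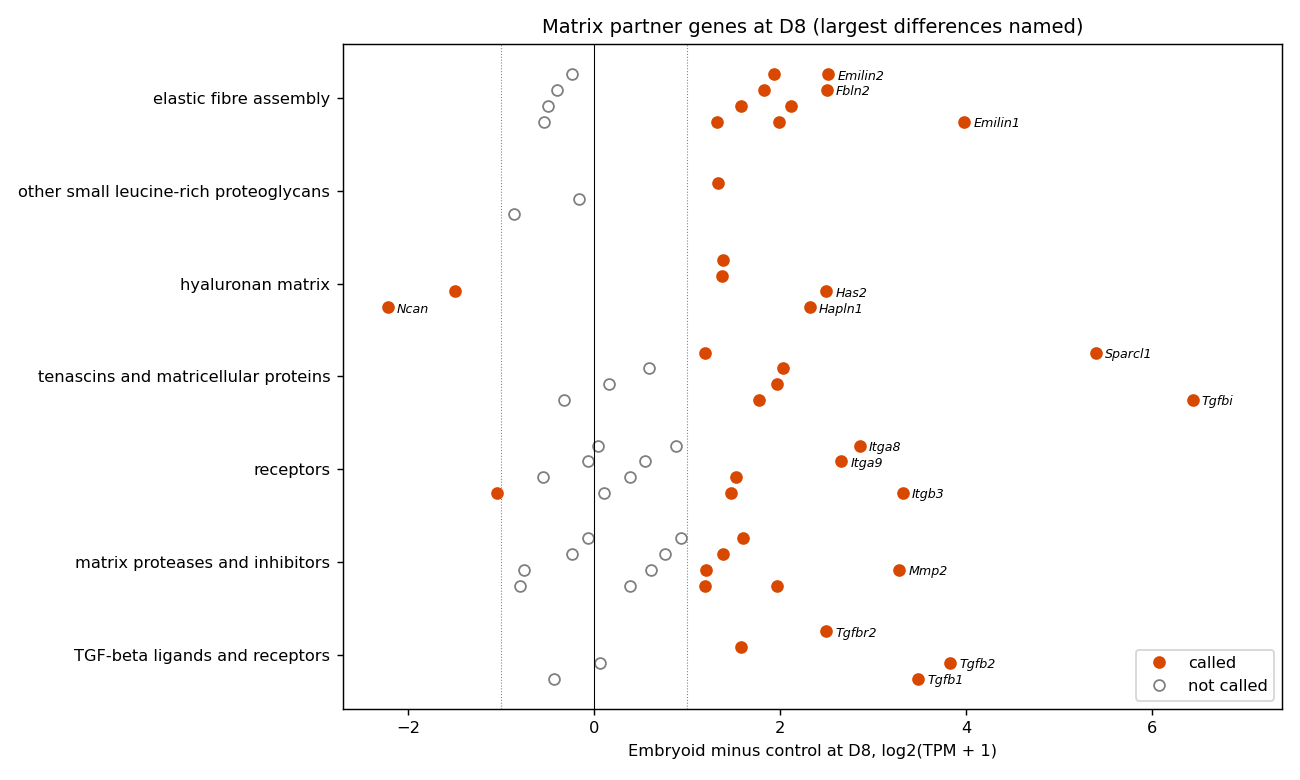
Embryoid minus control difference in log2(TPM + 1) at D8 (horizontal axis) for the 64 tested partner genes, 1 point a gene, in 7 lists (vertical axis, with points spread for legibility). Filled points were called and open points were not, and the dotted lines mark the minimum size of 1. Tgfbi (6.44) and Sparcl1 (5.40) lie farthest to the right, and Ncan (-2.22) farthest to the left.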

How the data were processed

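RNA sequencing values of 12 libraries were used. The authors deposited 1 table of genes by library with no unit named. The deposited values are recorded as a score, whole numbers that sum to 997897 to 998433 in each library, and were read as TPM that the authors had rounded. They are printed as TPM on that reading. By the submitters' notes reads were aligned to mm10 with STAR 2.6.1a, and SAMtools 0.1.20, featureCounts and DESeq2 were used. No read counts were used, so no counting error is given.

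The members and the cell type marker lists were chosen with earlier results of these data known. The partner lists were fixed with the results of the members known, but before the values of the partner genes were seen. Values were taken as log2(value + 1), and the 13751 genes whose mean exceeded 1 in any of the 4 groups were fitted in limma 3.58.1 (R 4.3.3, statmod 1.5.0) as 4 group means with trended, robust variances. A call required an adjusted p (Benjamini-Hochberg) under 0.05 and a log2 difference above 1 in size, differences of exactly 1 not counting. The fit was also run on simulated data with changes planted only in genes of higher level. That run does not bear on calls near 0, and no result here rests on it. Partners were named per list as the 3 largest differences in each direction at D8 among called genes, the 2 most abundant genes not called and any gene called between days in embryoids. Genes named beside these were chosen after their values were seen. They are Hprt, the genes listed at 0, Loxl1 and Loxl2, marker genes and genes whose difference changed between days. Groups are those of the labels, and p-values measure the spread between pools. The alternatives tried are given in the closing section. Figures were drawn with matplotlib 3.10.9 under Python 3.11.15.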

Additional observations from a re-analysis of the deposited data

Results flagged for a closer look

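The embryoid minus control difference changed from D7 to D8 for 3 of the 10 matrix genes and 8 of the 64 partner genes tested, all upwards at a minimum size of 1, beside 1.61% of all genes called higher and 2.51% in either direction. With no minimum, 18 of the 64 passed upwards and 3 downwards (Fbln1, -0.58, adjusted p = 0.00685 in limma; Mfap4, -0.53, adjusted p = 0.0201; Has3, -0.77, adjusted p = 0.0296), beside 5.37% and 3.71% of all genes. For the matrix genes the change on the log2 scale was 3.37 ± 0.51 for Postn, 2.51 ± 0.45 for Lum and 2.15 ± 0.45 for Dcn. These are given with no p since the genes were chosen with these values known. With controls listed at 0, the values of Postn and Lum repeat their change within embryoids. The partner genes were tested by the interaction term in limma over all genes. They were Ctgf (2.18, adjusted p = 6.67e-05), Emilin2 (1.30, adjusted p = 0.00503), Cyr61 (1.30, adjusted p = 0.00503) and Thbs1 (1.29, adjusted p = 0.0108). Fbln2 (1.14, adjusted p = 0.0179), Has2 (1.09, adjusted p = 0.00336) and Timp1 (1.03, adjusted p = 0.0295) followed. Tll1 (1.19) met the rule too, but passed the filter only through the D8 embryoids and is given with no p. Has2 was at 4 or 5 TPM in embryoids, and listed at 1 TPM in each D7 control and 0 in each D8 control. Rounding alone can make that control step, which was not called. Controls also stepped down for Timp1 (3 TPM to 1 or 2 TPM), Emilin2 (2 TPM to 1 TPM) and Fbln2 (3 TPM to 1 or 2 TPM). These steps, -0.81, -0.58 and -0.61 on the log2 scale, were not called. Within embryoids the changes were 0.23, 0.72 and 0.53, under the minimum size, so these calls rest partly on a few TPM in controls. For Thbs1, thrombospondin 1, embryoids went from 3 to 5 TPM at D7 to 8 or 9 TPM at D8 and controls from 8 to 13 TPM to 7 or 8 TPM.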

How the results depend on the processing

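The number of matrix genes called was 7 at D7, 10 at D8, 3 from D7 to D8 in embryoids, 0 in controls and 3 for the change of the difference. Leaving out each library gave 7 to 8, 10 to 10, 3 to 4, 0 to 0 and 3 to 4. With no minimum fold 1 gene was called between days in controls. Of 1024 values of single matrix genes under 21 alternatives, 1010 kept their side of the threshold, 5 fell below it, 9 rose above it and 0 reversed. With a pseudocount of 5 the calls of Dcn (0.98), Bgn (1.00) and Eln (0.41) at D8 and of Bgn (0.79) at D7 were lost, and that of Eln at D8 also with quantile normalization (0.81). At D7 Eln was gained with a pseudocount of 0.5 (1.58) and median-of-ratios scaling (1.08), and Fn1 with median-of-ratios scaling (1.12), quantile normalization (1.02) and without the Embryoid D7 replicate 2 (1.07).

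Partner genes called numbered 26 at D7, 38 at D8 and 3 between days in embryoids. They were 12, 22 and 0 with a pseudocount of 5, 56 at D7 and 30 between days with no minimum fold (beside 65.2% and 20.6% of all genes), and 1 between days with quantile normalization. Leaving out each library gave 24 to 28, 36 to 39 and 2 to 4. The cause of these moves was not tested.

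Replicate numbers are shared between groups, but 0 of 18 same-numbered pairs had a correlation of deviations over 0.1 (range -0.19 to 0.076), so they were not taken as pairs. With the replicate block 7, 10, 3, 0 and 3 matrix genes and 26, 38 and 3 partner genes were called. Whole-number values limit what can be said of Eln, Dcn, Fmod, Has2 and Tll1, and of the changed differences of Timp1, Emilin2 and Fbln2.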
